A study of Mus musculus with 8 samples.

Results

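The baseline described here is the gene expression of wild type pre-BII cells, taken from the 2 wild type arrays of a series of 8. The members were chosen by their labels alone: both arrays titled WT were used, every probe set other than the Affymetrix controls was ranked by its mean intensity on the linear scale, and no mutant array was compared with them. Whether the deposited intensities were normalized together with the mutant arrays is not given in the sources used here. The study hybridized RNA of pre-BII cells from wild type mice and from mice lacking Aiolos, OBF-1 or both to MOE430A GeneChips. According to its methods the cells were sorted as B220+ CD25+ cells from the pooled bone marrow of several age-matched mice, and the 2 arrays of a genotype came from independent pools. The gate named for the arrays holds large and small pre-BII cells and does not name IgM. The labels give the strain as Bl6, an age of 7 weeks and no treatment. They call the wild type samples control bone marrow without naming sorting or pooling, so the name pre-BII rests on the methods. No array of another B cell stage was compared, so the marker genes below describe the samples and do not test that name. Each array is 1 pool, so the spread given below is that between 2 samples, and it may be technical.

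Pre-BII cells are B cell precursors that have completed an immunoglobulin heavy chain gene. The heavy chain first pairs with the surrogate light chain, made of λ5 (encoded by Igll1) and VpreB, and with the signalling chains Igα and Igβ to form the pre-B cell receptor. Signals from this receptor, passed on by the kinase Syk and the adaptor Blnk, drive a burst of division in large pre-BII cells. The cells then become small and quiescent, silence the surrogate light chain genes and cut their light chain genes with the Rag1 and Rag2 recombinase.

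Of 22690 probe sets on each array, 64 controls were left out and 22626 were ranked. A probe set is a group of short probes against the same transcript, and its intensity, in arbitrary fluorescence units, depends on how well those probes bind as well as on the amount of mRNA. The ranks therefore order signals and do not say which of 2 genes has more mRNA. A probe set was called high if it lay in the top 5% of the ranking, which held 1131 probe sets of at least 909 units. It was called near background at or below 84.5 units, the 90th percentile of 140 probe sets of 94 genes restricted to other organs such as liver, pancreas and brain, whose median was 28.1 units. Between these limits it was called moderate. Near background took in 12553 probe sets (55.5%) and moderate 8942 (39.5%). With 1 probe set for each of 12393 genes, 620 genes (5.0%) were high, 5556 (44.8%) moderate and 6217 (50.2%) near background, and these shares are the background for each list below. The limits cut through a continuous range: the DNA polymerase gene Polm, at 919 units, lay just inside high, and the adhesion receptor gene Icam2, at 898 units, just outside.

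The array medians were 66.8 units for WT-1 and 67.5 units for WT-2, and values ran from 5.88 to 11283 units on WT-1 and from 6.37 to 11155 units on WT-2. The log2 intensities of the arrays had a Pearson correlation of 0.996 across probe sets, which are not independent replicates. Of the top 5% on either array, 1073 probe sets (94.9%) were in the top 5% of both. The high probe sets carried 45.5% of the summed intensity. Only 6 probe sets differed by at least 2-fold between the arrays, which is 0.0265% of those ranked.

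**Figure D1:**
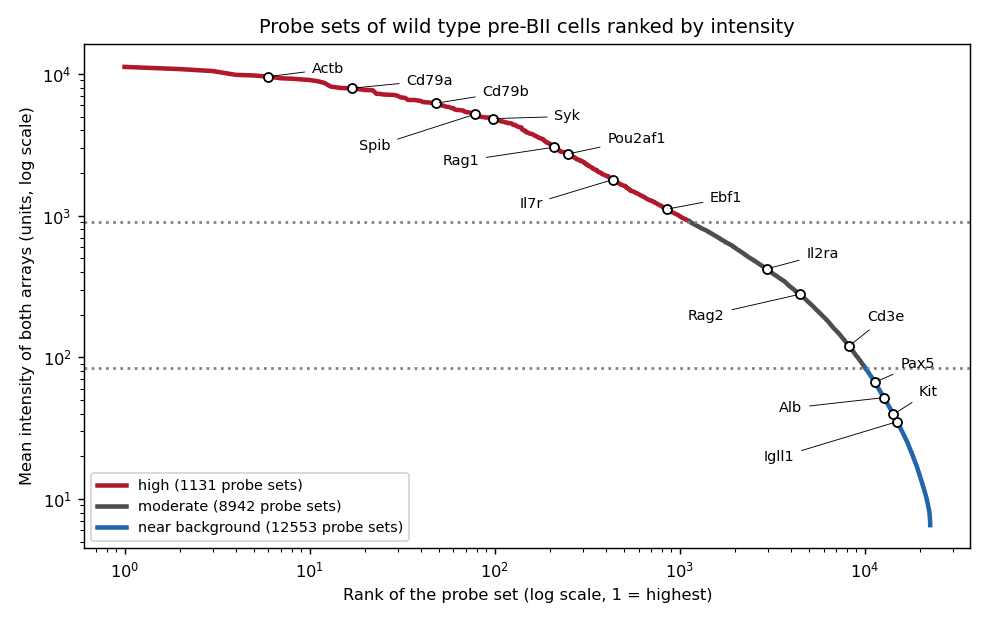
Mean intensity of both wild type arrays (units, log scale) against the rank of each of 22626 probe sets (log scale), coloured by class, with the class limits as dotted lines and named genes as open circles. Cd79a, Cd79b, Syk, Rag1 and Pou2af1 sat among the 1131 high probe sets, while Pax5, Kit and Igll1 lay with Alb, a gene of the liver, below 84.5 units.

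The genes listed as markers of pre-BII cells were mostly among the highest signals. The list is not particular to that stage: the study also sorted mature B cells by B220 and detected OBF-1 mRNA in mature B cells. Of 17 listed genes 16 were measured, and 12 were high, 3 moderate and 1 near background, with a median of 2732 units against 83.9 units over all genes. Rag1, which encodes the catalytic subunit of the recombinase, had 3181 units on WT-1 and 2901 units on WT-2 (mean 3041 ± 198, SD, n = 2) at rank 210. Syk, the kinase downstream of the pre-B cell receptor, had 4963 and 4717 units (mean 4840.0 ± 174, SD, n = 2) at rank 98. Cd79b, which encodes Igβ, had 6215 and 6211 units (mean 6213 ± 2.79, SD, n = 2) at rank 48. These markers were all high on both arrays and changed class on neither. Pou2af1, the gene of the Oct coactivator OBF-1, had 2761 and 2678 units (mean 2719.6 ± 58.3, SD, n = 2) at rank 248, and Cd79a, encoding Igα, had 7927 and 7944 units (mean 7936 ± 11.8, SD, n = 2) at rank 17. Vpreb3, whose product binds immunoglobulin chains in the endoplasmic reticulum, had 5997 and 5822 units, and Blnk had 2696 and 2794 units. Ptprc, whose B220 form was used for the sort, had 2198 and 2100.4 units, and Cd24a, Cd72, Il7r and Ebf1 were also high.

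The marker that names the gate by its protein, Il2ra (CD25), was moderate at 445 units on WT-1 and 396 units on WT-2. Rag2, whose product works in a complex with that of Rag1, was moderate at 269 and 288 units. Bst1, encoding the surface antigen BP-3, was moderate at 268 and 278 units. Pax5, the factor that commits cells to the B lineage, was the marker near background, with 72.6 units on WT-1 and 60.9 units on WT-2 at rank 11372. It has 1 probe set with its symbol alone here, so whether this was a weak probe set or little mRNA was not tested.

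The genes of the surrogate light chain and of the preceding pro-B and pre-BI stages had a lower median than the pre-BII markers. Of 9 measured genes 2 were high, 2 moderate and 5 near background. The share near background, 55.6%, was close to the 50.2% of all genes. Their median was 74.8 units against 83.9 units over all genes, so as a list they were not set apart from genes in general. The high ones were Il7r, which is also used at the pre-BII stage, and Cd93, an antigen of early B cells that is kept until the immature stage, with 1855 and 1904 units. Vpreb1 was moderate at 195 and 191 units, and a probe set shared by Vpreb1 and Vpreb2 had 115 and 125 units. Igll1 had 29.0 units on WT-1 and 41.3 units on WT-2 by its gene-specific probe set. A further Igll1 probe set, of a type that can also bind other transcripts, had a mean of 304 units and would be moderate. Kit (39.6 units), the receptor of pre-BI cells, and Dntt (51.1 units), encoding terminal transferase, were near background, as were Spn (74.8 units) and Erg (56.6 units). Flt3, a receptor of earlier progenitors, was moderate at 109 units, not far above the limit.

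To set these genes beside the sequence next to their starts, the promoter windows of RefSeq on build GRCm38.p6 were searched for letters bound by factors of this stage. The windows hold 250 bases before to 50 bases after each start. The motifs, each searched on both strands, were the octamer ATTTGCAT, which Oct factors bind with OBF-1 as their coactivator, the E-box CAGGTG, bound by E proteins such as the product of Tcf3, and the ETS motif CCGGAAG. Of 32851 windows the octamer was found in 1.74%, the E-box in 20.2% and the ETS motif in 8.86%. In the windows of the pre-BII markers, 16 for 13 of the 16 genes, the octamer was found in 2 (12.5%), those of Vpreb3 and Blnk, and the E-box in 5. Other small lists had octamer shares of that order, with 11.1% of 27 windows of the immediate early genes described below. The octamer was in 8.33% of 12 windows of stromal and endothelial genes, and in no window of T cell, granulocyte or plasma cell genes. The 180 bases before the start of the following genes are given 5′ to 3′ on the strand of the gene, with the octamer, E-box or ETS motif in capitals. Vpreb3 and Blnk are shown for their octamers, 45 and 130 bases before the start, and Rag1 as the marker that defines the rearranging cell. Vpreb1 is shown as a surrogate light chain gene of moderate signal. Rplp2 is a ribosomal protein gene of high signal, picked among those with an ETS motif in these bases.
Vpreb3: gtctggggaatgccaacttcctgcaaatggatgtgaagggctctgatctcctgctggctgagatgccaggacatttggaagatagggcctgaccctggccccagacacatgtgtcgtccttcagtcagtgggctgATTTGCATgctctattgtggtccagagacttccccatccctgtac
Blnk: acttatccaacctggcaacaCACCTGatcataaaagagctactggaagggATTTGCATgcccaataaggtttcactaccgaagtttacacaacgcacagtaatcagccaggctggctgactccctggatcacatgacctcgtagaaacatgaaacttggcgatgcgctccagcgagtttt
Rag1: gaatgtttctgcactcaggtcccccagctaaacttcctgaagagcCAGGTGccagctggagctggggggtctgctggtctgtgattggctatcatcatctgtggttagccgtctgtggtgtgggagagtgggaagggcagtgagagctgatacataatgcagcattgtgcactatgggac
Vpreb1: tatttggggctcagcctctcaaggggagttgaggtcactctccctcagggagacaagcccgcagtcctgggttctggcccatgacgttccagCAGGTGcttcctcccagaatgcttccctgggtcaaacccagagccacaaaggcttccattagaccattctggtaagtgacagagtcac
Rplp2: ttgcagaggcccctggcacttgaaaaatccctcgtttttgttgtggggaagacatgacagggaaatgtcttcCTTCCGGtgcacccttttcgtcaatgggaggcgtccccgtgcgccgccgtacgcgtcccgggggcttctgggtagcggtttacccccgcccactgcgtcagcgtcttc
These windows lie at chr10:75948120-75948299 on the plus strand for Vpreb3, chr19:40994222-40994401 on the minus strand for Blnk, chr2:101649533-101649712 on the minus strand for Rag1, chr16:16869256-16869435 on the minus strand for Vpreb1 and chr7:141447471-141447650 on the plus strand for Rplp2. A match is a description of the letters and not a binding site. Over all genes the octamer did not mark the high class: it was found in 1.59% of the windows of high genes, 1.19% of those of moderate genes and 1.82% of those near background. The ETS motif was found in 18.2% of the windows of high genes, 20.8% of moderate genes and 6.87% of genes near background, and in 42.6% of 47 windows of ribosomal protein genes. The E-box was found in 18.1% of the windows of high genes, 16.5% of moderate genes and 22.2% of genes near background. Its share differed between lists and was not high in every list of B cell genes. It was 41.2% of 34 windows of pre-B cell receptor signalling genes and 40% of 15 windows of immature and mature B cell markers. It was 13.3% of 60 windows of transcription factors listed for the B lineage and 7.69% of 26 windows of cytokine receptor genes. Among genes of other cells it was 55.6% of 9 windows of T cell genes and 44.4% of 9 windows of plasma cell genes. The CpG ratio, the observed number of CpG dinucleotides over that expected from base composition, had a median of 0.795 in high, 0.784 in moderate and 0.490 in near background windows. In the windows of the pre-BII markers the median was 0.298.

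The list of B-lineage transcription factors spanned the whole range, and it also holds factors of other lineages, such as Gata1, Gata3 and Cebpa. Of 49 measured genes 12 were high (24.5% against 5.0% of all genes), 23 moderate and 14 near background, with a median of 228 units. Spib, an ETS factor related to PU.1, gave the highest signal of the list, with 5375 units on WT-1 and 4996 units on WT-2 (mean 5186 ± 268, SD, n = 2) at rank 78. Bach2, a repressor of plasma cell genes, had 3216 and 2738 units, and Klf2, a factor of quiescent lymphocytes, had 3088 and 2586 units. Sox4, which early B cells need, had 3054 and 2587 units. These 4 factors were higher on WT-1 by 1.08-fold to 1.19-fold, a larger gap than the median ratio of 1.06 between arrays for high probe sets but within its 95th percentile of 1.20. Tcf3, the gene of the E2A proteins, had 2363 and 2041 units, and Myb, a factor of precursor cells, had 1908 and 1935 units. Irf4 (mean 1593 units) and Irf8 (mean 1140.3 units), whose products together end the proliferation of pre-BII cells, were also high. Foxo1, which drives the Rag genes, had 1394 and 1159 units, and Mef2d and Ebf1 completed the high class with Pou2af1.

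Several factors with central roles in B cell development gave moderate signals. Ets1 (834 units), the E protein genes Tcf12 (677 units) and Tcf4 (378 units), Spi1, encoding PU.1 (486 units), and Pou2f2, encoding Oct-2 (328 units), were among them. Ikzf1, encoding Ikaros, the founder of the family to which Aiolos belongs, had 225 units on WT-1 and 182 units on WT-2. Stat5a (148 units) and Stat5b (177 units), which act downstream of the IL-7 receptor, and Runx1 (107 units) were lower within the same class. Near background lay Pax5, Myc (48.5 units), which is shut off after the proliferative burst, Lef1 (35.9 units), a factor of pro-B and pre-B cells, and Bcl6 (75.9 units). The plasma cell repressor Prdm1 (63.3 units), the myeloid factors Cebpa (82.9 units) and Cebpb (75.6 units), the erythroid factor Gata1 (36.9 units) and the T cell factor Gata3 (16.2 units) were in the same class. With the median over each gene's probe sets in place of 1 chosen probe set, 6 of the 49 factors were high.

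**Figure D2:**
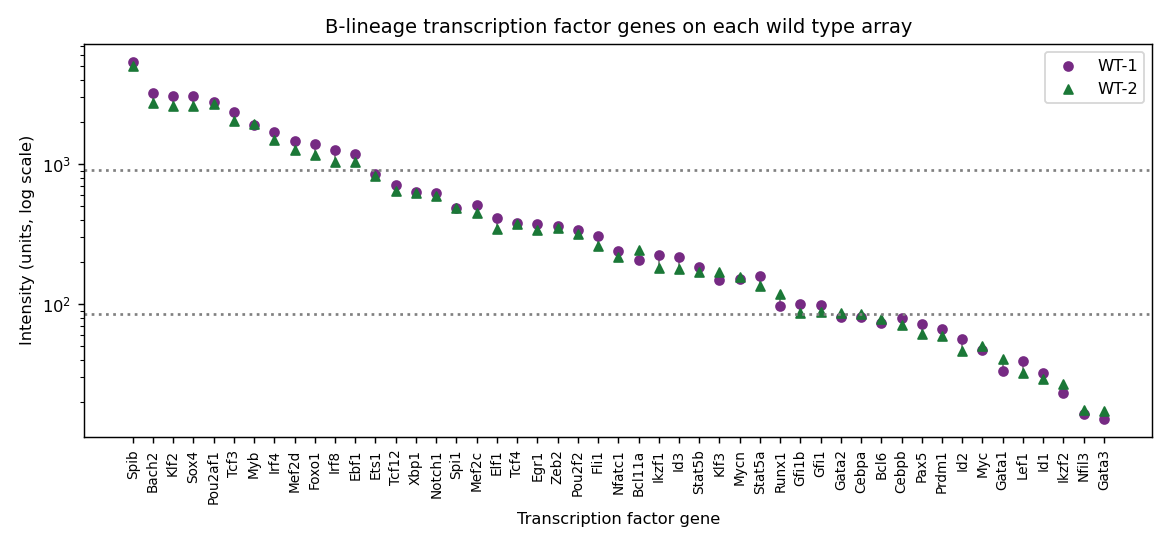
Intensity (units, log scale) of 49 listed transcription factor genes on each wild type array, ordered by their mean, with the class limits as dotted lines. The list was made for the B lineage and also holds factors of other lineages. The 12 genes above the upper limit run from Spib to Ebf1, the 14 below the lower limit from Gata2 to Gata3, and the arrays lie close together at every gene.

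Pre-B cell receptor signalling genes were nearly all high or moderate. Of 27 measured genes 14 were high (51.9%), 12 moderate and 1 near background, with a median of 958 units. Cd79a, Cd79b, Syk, Cd72 and Blnk headed it. The Src family kinase gene Blk had 1862 units on WT-1 and 1757 units on WT-2, and Btk, the kinase that activates phospholipase C with Blnk, had 985 and 931 units. Plcg2, the phospholipase itself, had 1463 and 1415 units, and Prkcb, encoding a protein kinase C isoform downstream of it, had 1723 and 1628 units. Negative regulators were among the high genes too. Dok3 (1649 units), the inhibitory co-receptor gene Cd22 (1268 units), the lipid phosphatase gene Inpp5d (1034 units) and the tyrosine phosphatase gene Ptpn6 (959 units) were high, together with Prkcd (1039 units). Pik3cd, the leukocyte catalytic subunit of PI3 kinase, was just below the limit at 883 units, whereas its regulatory subunit gene Pik3r1 had 116 units. Zap70, the T cell relative of Syk, was moderate at 178 units, and Sos1 was near background at 72.5 units.

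Cytokine receptor genes were mostly moderate. Of 29 measured genes 3 were high, 20 moderate and 6 near background, with a median of 193 units. Il7r, the receptor for the main growth factor of precursor B cells, had 1773 units on WT-1 and 1824 units on WT-2. Tnfrsf13c, encoding the BAFF receptor on which mature B cells depend, had 1576 and 1488 units, and Tnfrsf13b, encoding TACI, had 1152 and 1098 units. All 3 were high, and the other BAFF family receptor gene, Tnfrsf17, was near background at 22.1 units. Tgfbr2 was just below the high limit at 884 units. Jak1, the kinase that serves the IL-7 receptor α chain, had 884 and 656 units, and Jak3 had 145 units. The receptor genes of other lineages ranged from Csf2ra (283 units), Csf1r (206 units) and Csf3r (170.3 units) in the moderate class to Csf2rb (41.0 units) and Il2rb (58.6 units) near background.

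Of 23 homing and adhesion genes 5 were high, 13 moderate and 5 near background. The tetraspanin gene Cd37 had 3471 and 3597 units, and Cxcr4, the receptor that holds precursors near stromal Cxcl12, had 1873 and 1792 units. Cd53, Cd47 and Selplg, encoding the selectin ligand PSGL-1, completed the high class. Receptors used by mature B cells in lymphoid organs were not among them, with Ccr7 moderate at 351 units and Cxcr5 (68.0 units) and Ccr6 (59.5 units) near background. The integrin gene Itga4 was near background at 62.4 units, and its partner genes Itgb7 (114 units) and Itgb1 (105 units) were moderate.

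Markers of immature and mature B cells were not uniformly low. Of 22 measured genes 6 were high, 10 moderate and 6 near background, with a median of 283 units. Fcrla had 2697 and 2699.5 units, Cd74, the invariant chain of MHC class II, had 2646 and 2575 units, and Ms4a1, encoding CD20, had 2521 and 2379 units. Near background lay Cd80 (26 units), Ciita (31.0 units) and Cr2 (38 units), which encodes the complement receptor of mature B cells. A probe set shared by immunoglobulin κ constant, joining and variable segments had a mean of 8039 units at rank 14. Other probe sets of the same segments had means of 2124 and 1692 units, and all are of a type that can also bind other transcripts.

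The recombination machinery was uneven. Of 21 measured genes of V(D)J recombination and end joining 5 were high, 10 moderate and 6 near background, with a median of 155 units. Besides Rag1 the high genes were Xrcc6, which encodes Ku70 (1422 units on WT-1 and 1291 units on WT-2), Hmgb2, a DNA-bending cofactor of cleavage (1267 and 1257 units), Parp1 (1071 and 984 units) and Polm (979 and 859 units). Xrcc5, which encodes Ku80, the partner of Ku70, was near background at 32.3 and 25.9 units. The damage kinase genes Atm (145 units) and Prkdc (133 units) and the joining factor Xrcc4 (90.5 units) were moderate. Nhej1 (25.6 units), Poll (28.3 units) and Nbn (17.5 units) were near background with Dntt. With the median of all probe sets of a gene, 3 of the 21 genes were high.

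Cell division genes were moderate as a group. Of 32 measured genes of DNA replication 1 was high (2 on WT-1 alone), 25 were moderate and 6 near background. Pcna, the sliding clamp of the DNA polymerases, was the high one with 2211 and 2296 units, followed by Pold1 (898 units) and Mcm7 (765 units). Of 27 mitotic genes none was high, 22 were moderate and 5 near background. Cks2 (779 units), Mki67 (723 units) and Top2a (498 units) led this list, and Cenpe (9.22 units) was near background. Of 23 genes of cyclins, CDKs, their inhibitors and other cell cycle regulators 3 were high, 13 moderate and 7 near background. The antiproliferative genes Btg1 (3662 and 3612 units) and Btg2 (3928 and 2576 units) and the D-type cyclin gene Ccnd3 (1585 and 1448 units), which pre-B cells need, were the high ones. The study reports from flow cytometry that most pre-BII cells were small and not dividing, whatever the genotype. The arrays hold large and small cells together, so they cannot tell the share of dividing cells apart from the level per dividing cell.

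In the BCL2 family the survival genes Bcl2l1 (1168 and 1143 units) and Mcl1 (1187 and 1097 units) were high. Bcl2 was moderate at 89.1 units, not far above the background limit. Near background were 7 of 14 genes (50%), the same as the share of all genes (50.2%). The death-promoting gene Bcl2l11, encoding Bim, had 541 units. Of 42 chromatin enzymes 5 were high, 32 moderate and 5 near background. Smarca4, the ATPase of the BAF remodelling complex, had 4584 units on WT-1 and 4153 units on WT-2 at rank 128, and Arid1a (1155 units), another subunit of that complex, and Ezh2 (1139 units), the Polycomb methyltransferase, were also high. Hdac9 (45.3 units) was near background.

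Ribosomal protein and actin cytoskeleton genes were mostly high. Of 45 cytoplasmic ribosomal protein genes 29 were high (64.4%), 10 moderate and 6 near background, with a median of 3663 units. Rps29 had 7979 and 8326 units, Rpl4 7081 and 7411 units, and Rps14 7169 and 7303 units. Of 21 genes of the leukocyte actin cytoskeleton 15 were high (71.4%), led by Actb with 10097 units on WT-1 and 9057 units on WT-2. Of 80 oxidative phosphorylation subunits 36 were high (45.0%), 38 moderate and 6 near background, led by Uqcrb (5561 units), and the 6 near background included Cox7a1 (15.8 units) and Cox8b (31.1 units), which are forms of heart and skeletal muscle. Of 44 translation factors 18 were high, with Eef1a1 at 7951 units and Eef2 at 5128 units, and of 47 splicing factors 17 were high, with Hnrnpdl at 2926 units.

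Proteasome and glycolysis genes were mostly moderate. Of 38 proteasome subunits 8 were high and 29 moderate, with the testis-specific subunit gene Psma8 (20.6 units) near background. Of 15 glycolysis genes 1, Aldoa (1560.3 units), was high and 12 were moderate, with Pkm at 832 units and Pgk1 at 803 units. Of 67 chaperone genes 11 were high, 33 moderate and 23 near background, from Dnajc7 (4621 units) to Dnajb7 (11.6 units). Of 12 genes often used as references for normalization 7 were high and none near background, and they ran from Actb down to Tbp at 134 units. Of the tubulins and actins, Actb, Actg1 (5000.1 units) and Tubb5 (2155 units) gave high signals, whereas Tubb3 (11.3 units), the neuronal form, was near background, as were 11 of the 18 genes.

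**Figure D3:**
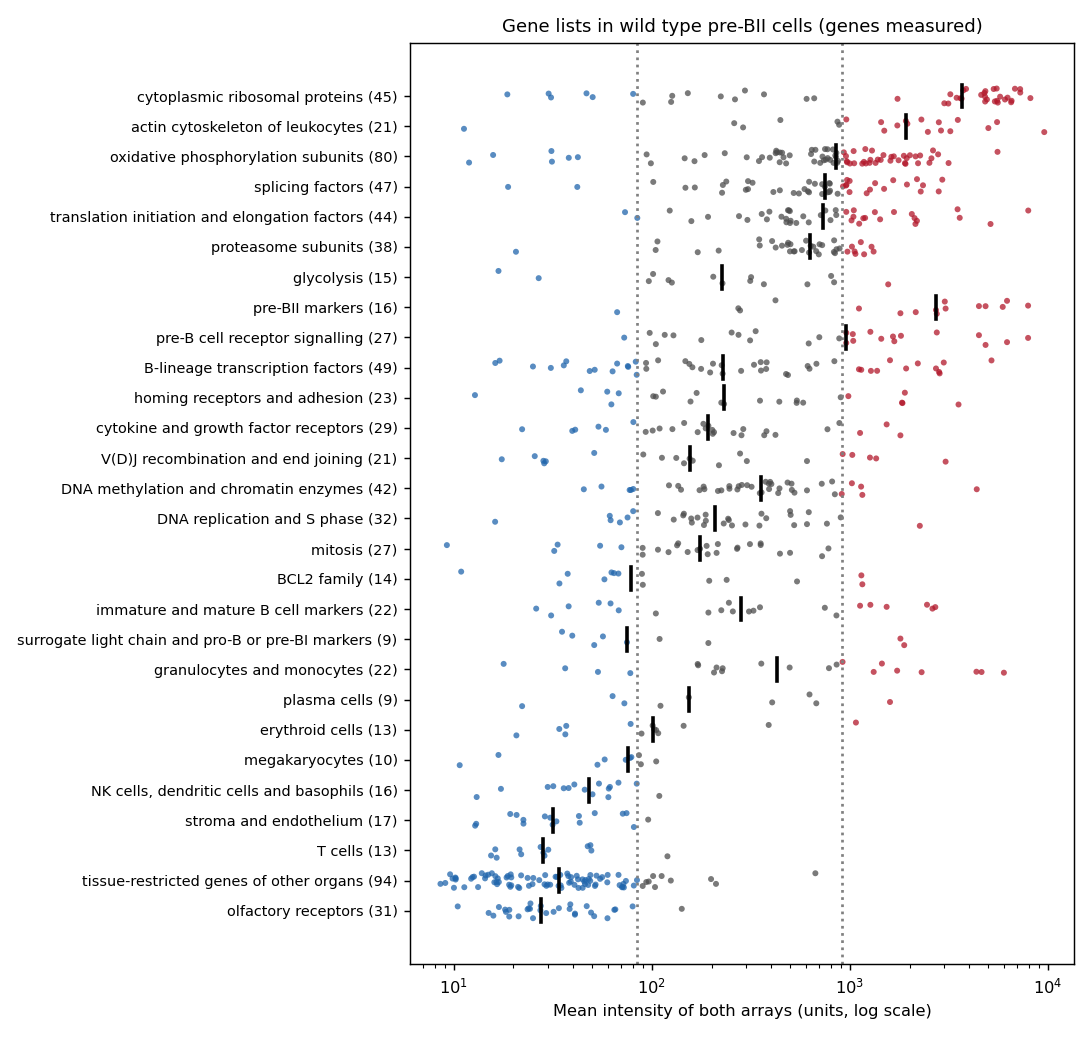
Mean intensity of both wild type arrays (units, log scale) for each measured gene of the lists named on the left, coloured by class, with the list median as a black bar, the class limits as dotted lines and the number of genes in brackets. Ribosomal proteins, the actin cytoskeleton and pre-BII markers have the highest medians, and T cell, stromal and olfactory receptor genes lie mostly below 84.5 units.

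Markers of T cells, NK cells and stroma were mostly near background, whereas most granulocyte and plasma cell genes were not. Erythroid genes had a median of 101 units, not far above the background limit. T cell genes were near background in 12 of 13 cases, the exception being Cd3e at 119.8 units, genes of NK cells, dendritic cells and basophils in 15 of 16, stromal and endothelial genes in 16 of 17, megakaryocyte genes in 7 of 10, and olfactory receptor genes in 30 of 31. On WT-2 alone the genes above background numbered 2 in the list of NK cells, dendritic cells and basophils, 2 in that of stroma and endothelium, 1 in that of megakaryocytes and 2 among olfactory receptors. Of 22 granulocyte and monocyte genes 8 were high, 10 moderate and 4 near background. The calcium-binding protein gene S100a9 had 6038 units on WT-1 and 5943 units on WT-2 at rank 52, S100a8 had 4574 and 4666 units, and the granule gene Ngp had 4244 and 4461 units. Their summed signal over the list was 26529 units on WT-1 and 26617 units on WT-2. Genes of surface receptors in this list were moderate in the case of Cd177 (357 units), Fcer1g (226 units), Csf1r (206 units) and Csf3r (170.3 units), and near background in that of Fcgr3 (77.8 units), Cd14 (53.4 units) and Itgam (36.5 units). Of 13 erythroid genes 1, Tfrc, was high, 7 were moderate and 5 were near background. Among the moderate ones Car2 had 389 units, and the others ran from Car1 (88.6 units) to Alas2 (145 units). Some tissue-restricted genes of other organs lay in that range too, such as Aqp2 (112 units), Neurod2 (104 units) and Pomc (101 units). Most genes of that tissue-restricted list, 84 of 94, were near background. The near background limit was itself set high among the probe sets of this list, so most of its genes had to fall below it. That count therefore follows from the definition and is not a separate observation. Hba-a1 (20.7 units) and Hba-a2 (34.1 units) were near background by their own probe sets. Of the probe sets shared by both α globin genes, the highest had 7510 and 8374 units at rank 16. The others had means of 2489 and 235 units. The probe set shared by β globin genes had 5511 and 5341 units. Of 9 plasma cell genes 1, Irf4, which precursor B cells also express, was high, 5 were moderate, led by Iglv1 (676 units) and Xbp1 (625 units), and 3 were near background, among them Prdm1. The part of granulocyte, erythroid or other cells in the signals above was not tested, and in a bulk sample fewer cells of a type and less RNA per cell cannot be told apart.

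The highest 20 probe sets with 1 gene symbol, taken once per gene, were led by Ighm, the μ heavy chain gene, with 11283 units on WT-1 and 11155 units on WT-2. Rpl41 (10823 units), Actb, Tpt1 (9326 units) and Tmsb10 (9259 units) followed. Ribosomal protein genes took 10 of the 20 places, and Fau, which encodes a ribosomal fusion protein, another. The other genes were Eef1a1, Cd79a, Atp1b1, H2-K1 and Cnp. Ighm and Cd79a were the B-lineage genes among them. Many of these probe sets, among them those of Ighm, Rpl41, Tmsb10, Rps29, Rps28, Rps14, Atp1b1, H2-K1 and Cnp, carry the s_at or x_at suffix, which marks probes shared with further transcripts.

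How far a rank can be read as a gene's level was seen from genes with several probe sets. Among 4956 such genes the highest probe set exceeded the lowest by a median of 3.12-fold, and by at least 10-fold in 825 genes (16.6%). In 2269 genes (45.8%) the probe sets fell in more than 1 class, and 138 genes had both a high and a near background probe set. Rpl41 ranged from 30.9 to 10823 units and Tmsb10, an actin-binding protein gene, from 11.2 to 9259 units. For Rpl41 and Tmsb10 the gene-specific probe set was the low one, so both were counted near background above. Syk ranged from 206 to 4840.0 units. A near background call therefore does not show that an mRNA was absent, and this holds for Pax5, Igll1, Lef1 and Xrcc5 too.

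**Figure D4:**
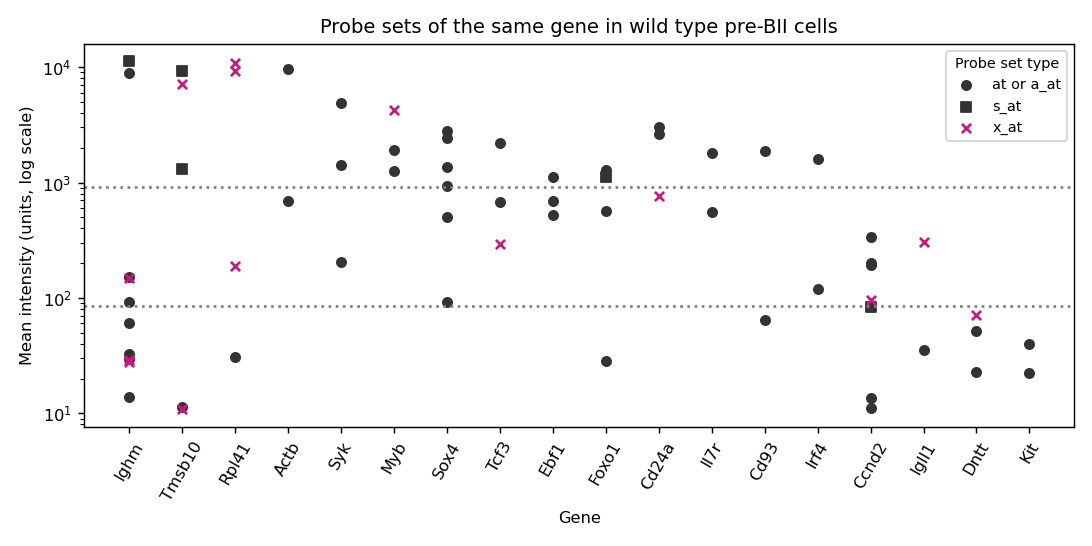
Mean intensity of both wild type arrays (units, log scale) of every probe set with 1 gene symbol for the genes named below, with symbols for the probe set type (s_at and x_at can bind several transcripts) and the class limits as dotted lines. Ighm, Tmsb10, Rpl41 and Foxo1 have probe sets in both the high and the near background class, and both Kit probe sets lie near background.

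Differences between the arrays were small, and with 1 array on each side they were not tested. The median ratio of the higher to the lower array was 1.06 for high, 1.07 for moderate and 1.08 for near background probe sets. Among genes with a mean of at least 100 units, the largest ratios were in Rab5c, a gene of endosome traffic, with 539 units on WT-1 and 208 units on WT-2, and in Cap1, an actin regulator, with 220 and 510 units. Ddit4, a stress-induced inhibitor of mTOR signalling, had 371 and 162 units. The other genes of the 10 with the largest ratios were Zfp445, Fos, Sfswap, Gdap10, Atp8a1 and Klf4, higher on WT-1, and Ctse, higher on WT-2. Fos and Klf4 are immediate early genes, which cells switch on within minutes of a stimulus, and a list of 26 such genes was added after this was seen. Of these, 5 were at least 1.5-fold higher on WT-1, namely Fos (1319 against 702 units), Klf4 (274 against 160.3 units), Jun (831 against 496 units), Junb (242 against 147 units) and Btg2, and none was on WT-2. Over all genes 32 (0.258%) were at least 1.5-fold higher on WT-1 and 8 (0.0646%) on WT-2. The list was chosen for 2 of these values, so the count is a description.

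Whole lists also leaned to 1 array by small amounts. Of 80 oxidative phosphorylation genes 62 were higher on WT-2, and of 45 ribosomal protein genes 31, against 6398 of 12393 genes. Lists that lay mostly near background leaned to WT-2 too, with 24 of 31 olfactory receptor genes and 59 of 94 tissue-restricted genes. Of 10 megakaryocyte genes 4 were higher on WT-2. Of 42 chromatin enzyme genes 35 were higher on WT-1, of 49 transcription factors 35, and of 27 pre-B cell receptor signalling genes 22, against 5990 of all genes. The genes of a list share the array and are not independent replicates. The lean between the arrays was small beside the class limits, and with either array alone the number of high transcription factor genes was again 12.

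**Figure D5:**
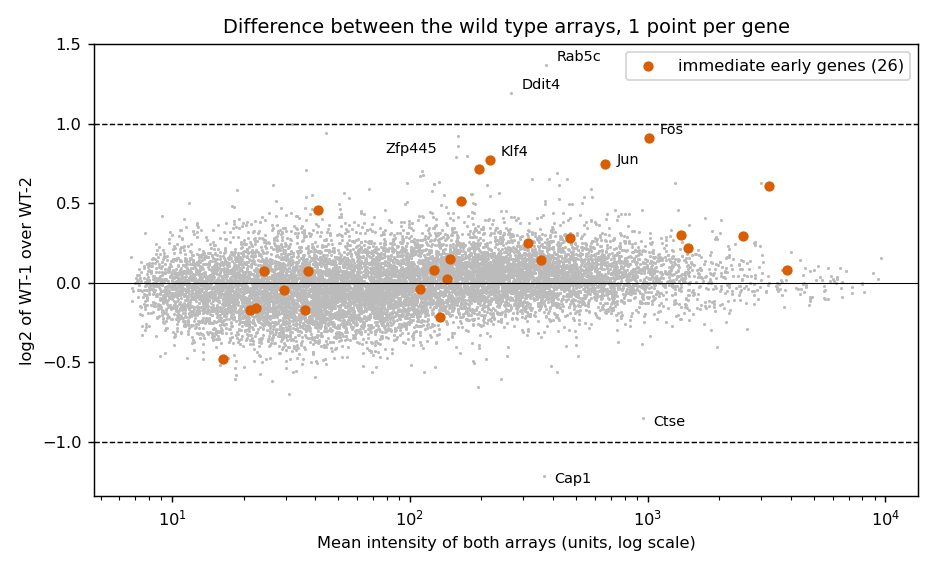
Log2 ratio of WT-1 over WT-2 for each of 12393 genes against the mean intensity of both wild type arrays (units, log scale), with 2-fold differences as dashed lines and 26 immediate early genes in orange. Most genes lie close to 0, Rab5c, Ddit4 and Cap1 lie beyond 2-fold, and Fos, Klf4 and Jun lie above 0.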

How the data were processed

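RNA of the wild type pools was hybridized to 1 MOE430A array each. Per the labels the deposited intensity values come from RMA, a method that subtracts background, quantile normalizes the arrays and fits 1 value to the probes of a probe set. Their range shows a linear scale. The version of RMA is not given in the sources used here. The published methods instead name Affymetrix Microarray suite 5 and GeneSpring 5. Quantile normalization makes the distributions of the arrays alike. The number of arrays limits the precision.

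Both columns were averaged, ranked and put in classes with Python 3.11.15, numpy 2.4.6 and pandas 2.3.3. Of the probe sets 20380 had 1 gene symbol, 691 several and 1555 none, and 20359 were matched to the gene table of GRCm38.p6, which was used for names. For a gene with several probe sets, those without the s_at or x_at suffix were taken first, then the highest. Probe sets of several symbols are described as shared. No test was made, since there is 1 group of 2 arrays. The steps were tested on simulated data.

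The members and lists were chosen with earlier results of these data known. The genes named follow a rule: the 20 highest genes, the 10 with the largest ratio between arrays at a mean of at least 100 units, any member of the marker, transcription factor, signalling, receptor, homing and recombination lists, and the 3 highest and the 3 lowest or nearest the median of each other list. Alb, Jun, Junb, the granulocyte receptor genes Cd177, Fcer1g, Csf1r, Csf3r and Fcgr3, the genes shown with several probe sets and those of the other observations were picked after their values were seen. The immediate early list was added after the data were seen, and the translation factor list, made by a name pattern, was then cleared of kinases and methyltransferases. Alternatives were other scalings, limits, choices of probe set and each array alone. Genes without a probe set of their symbol alone, among them Ikzf3, Lyn and Il2rg, were not analysed here.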

Additional observations from a re-analysis of the deposited data

How the results depend on the processing

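The number of probe sets near background was 12553 and ran from 11030 (limit from olfactory receptor probe sets) to 14057 (95th percentile of tissue-restricted genes). With the median of all probe sets of a gene, the high transcription factors went from 12 to 6 and the high genes of V(D)J recombination from 5 to 3, because low probe sets of a gene then count as much as high ones. Probe sets at least 2-fold apart between the arrays went from 6 to 2 after adding 50 units to each intensity. With either array alone the probe sets near background numbered 12495 to 12673. Of 594 list counts under alternatives (66 counts), 553 stayed within 1.5 times and 41 did not, 12 of them with the top 10% of probe sets called high and 9 with the median of all probe sets. The cause of the other moves was not tested. Per the labels RMA had already made the arrays alike, so normalizing or centring them again could hardly move a count. No count moved with these settings or with the mean of log2 intensities. On WT-1 alone 2 replication genes were high in place of 1. On WT-2 alone 4 counts of genes above background moved, from 1 to 2 for NK cells, dendritic cells and basophils, for stroma and endothelium and for olfactory receptors, and from 3 to 1 for megakaryocytes. No paired analysis was possible because only 1 group was described and no test was made. Signal over background limits the reading of values below 84.5 units.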

Other observations

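Of the 620 high genes, 410 were in none of the lists, and the genes named here were picked from them after their values were seen, for what is known of their products. Among genes of lymphoid surface proteins, Ly6d, an antigen of B-lineage progenitors, had 4359 units on WT-1 and 4476 units on WT-2, Ptprcap, encoding the protein that associates with CD45, had 3786 and 3575 units, and Cd52 had 2009.5 and 2066 units. Of regulators outside the lists, Foxp1, a forkhead factor required in early B cell development, had 2154 and 2175 units, and Cbfb, the partner of the Runx factors, had 1735 and 1539.9 units, while Runx1 itself was moderate. Nfkbia, the inhibitor of NF-κB, had 4486 and 4512 units. Csk, which holds Src family kinases inactive, had 2273 and 2036 units, and Laptm5, a lysosomal protein of leukocytes, had 2869 and 2779 units.

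Some high genes are better known from other tissues. Myl4, a myosin light chain of the heart atrium, had 1745 units on WT-1 and 1886 units on WT-2. Reln, encoding the secreted protein reelin of the brain, had 1079.8 and 1117 units, and Col5a3, a collagen chain, had 1136 and 1134 units. Gpam, an enzyme of glycerolipid synthesis, had 1844 and 1820.0 units, and Akap12, a scaffold of protein kinase A, had 2338 and 2203 units. All 5 were high on both arrays by their gene-specific probe sets.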
